A study of Zea mays with 6 samples.

Results

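Genes listed at a low level in control seedlings and higher after auxin were taken from a table of FPKM values. FPKM stands for the mapped fragments of a gene, scaled by the length of its transcript and by the size of the library. A gene was a member if it was listed below 2 FPKM in DMSO, at 2 FPKM or more after IAA, and at 2 or more times its DMSO value after IAA. Of the 39283 genes of the table, 71 were members. The rule left out microRNA precursors and one stretch of chromosome 2, which together made 165 genes, 14 of which met the limits on the values. The members were chosen by these FPKM values themselves, so their levels and ratios are given as a description and were not tested.

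Seedlings of the maize inbred line B73, 7 days old and grown in a greenhouse, were the source of the RNA. Their aerial parts were cut and kept for 30 min either in indole-3-acetic acid (IAA, the main natural auxin) dissolved with 1% DMSO, or in 1% DMSO alone, the solvent that both groups share. The dose of IAA stands as 100 mM in the sample labels and in micromolar units in the methods. Each of the 2 groups had 3 replicates of 3 plants, pooled within a replicate. The deposited table holds 1 FPKM value per gene and treatment over the replicates, so the spread between replicates and the depth per library are unknown here. The authors' own test results in that table were not used, and no interval or test is given here with any value. Of 10 leaf genes looked up as tissue markers (Rubisco, light-harvesting and C4 cycle genes), 9 were found, at 283 to 2726 FPKM after IAA and 227 to 1741 FPKM in DMSO. The only root hair gene found of 4, rth3, had 8.70 FPKM after IAA and 11.1 FPKM in DMSO.

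Auxin is perceived in the nucleus by TIR1/AFB F-box proteins, which bind Aux/IAA repressors when auxin is present and mark them for degradation. Auxin response factors (ARFs) held back by these repressors are then free to act on their target genes. Early targets are known to respond within minutes in many plants and include the Aux/IAA genes themselves, SAUR genes and the GH3 genes that conjugate auxin to amino acids. Genes listed low in control tissue can show which scarce transcripts stand higher after such a treatment. In a sample of the whole shoot, a low value can stand for a little transcript in many cells or for more transcript in a few, and these cannot be told apart here.

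The members reached low levels after IAA. Their IAA values ran from 2.04 to 17.2 FPKM with a median of 3.21 FPKM, against 0.134 to 1.92 FPKM with a median of 1.21 FPKM in DMSO. After IAA, 32 members stood between 2 and 3 FPKM, 21 between 3 and 4 FPKM, 12 between 4 and 5 FPKM and 6 at 5 FPKM or more. For scale, the genes with a mean FPKM of 1 or more over both treatments had a median of 10.5 FPKM after IAA and 10.7 FPKM in DMSO, and only 1 member passed that level after IAA. In DMSO, 46 members had 1 FPKM or more, 21 had between 0.5 and 1 FPKM, and 4 had less than 0.5 FPKM. None of the 71 was listed at 0 in DMSO. A value of 0 in DMSO and a value above 0 after IAA was listed for 1166 genes, but the highest of them reached 1.25 FPKM and so stayed under the limit.

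**Figure D1:**
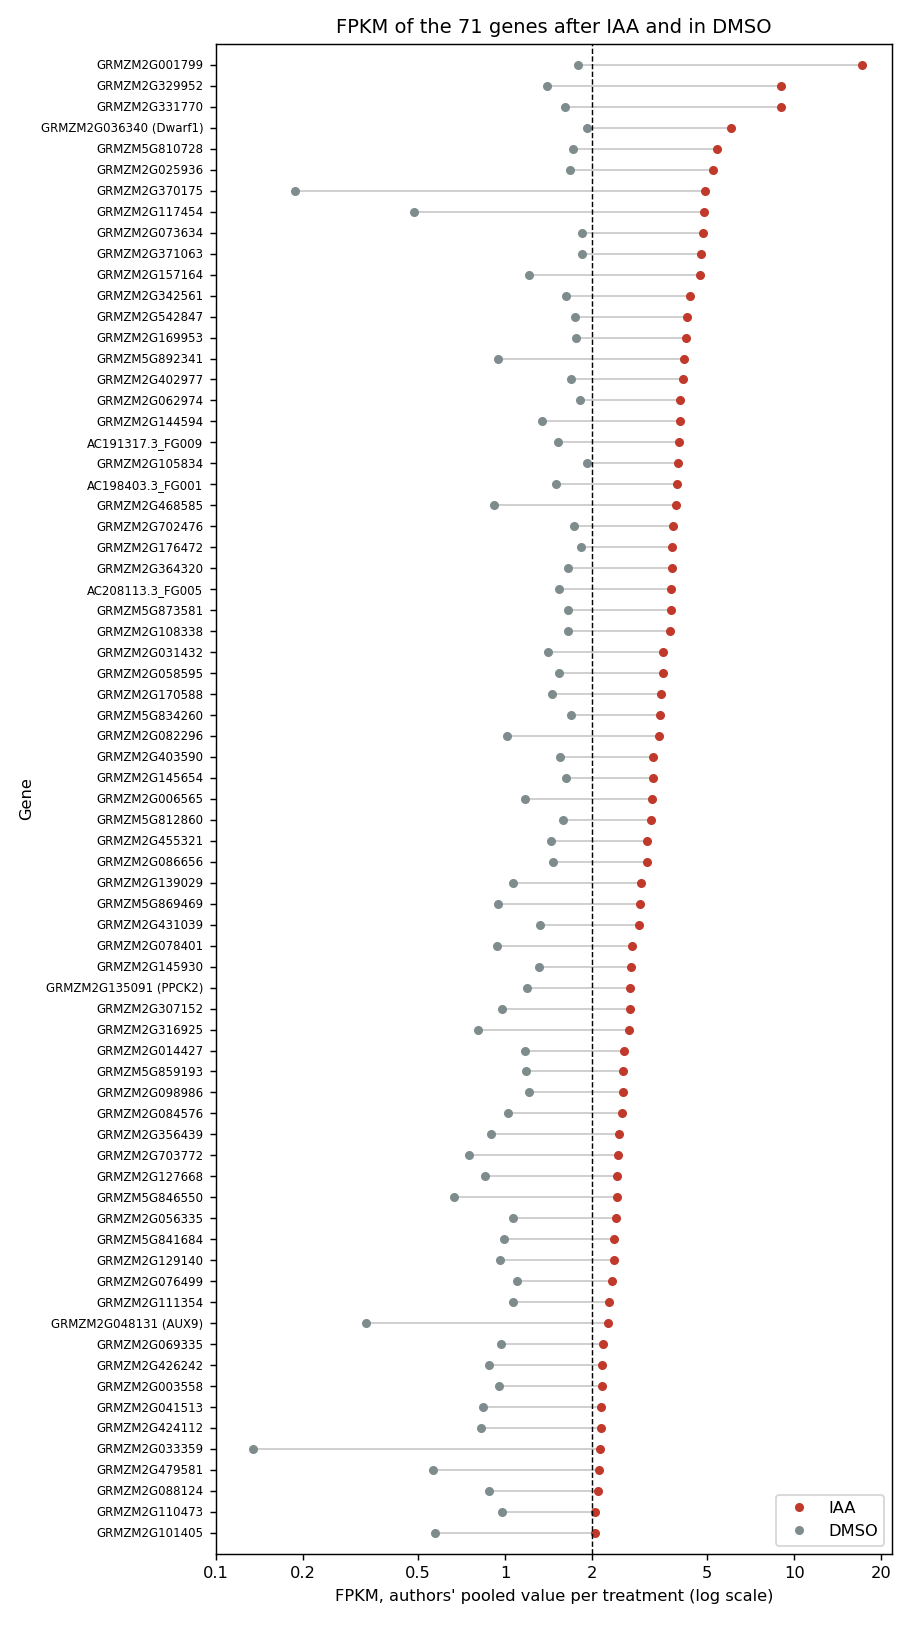
FPKM after IAA (red) and in DMSO (grey) for each of the 71 genes, 1 value per treatment as pooled by the authors, on a log axis with a dashed line at 2 FPKM. IAA values run from 2.04 to 17.2 FPKM, and 4 genes start below 0.5 FPKM in DMSO.

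Most ratios lay near the lower limit of the rule. The median ratio of IAA over DMSO was 2.48, or 1.31 on the log2 scale, beside a median log2 ratio of -0.04 over the 22481 genes with a mean FPKM of 1 or more. A ratio under 3 was found for 51 members, and 3 members had a ratio of 10 or more. The members were 0.182% of the 39118 genes that the rule could take, and 0.376% of the 18907 genes listed below 2 FPKM in DMSO. At any level, a ratio of 2 or more was listed for 3.98% of genes above 0 in both treatments, and for 0.881% of genes with a mean FPKM of 1 or more.

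More genes crossed the limit of 2 FPKM in the other direction. In all, 422 genes were below 2 FPKM in DMSO and at or above it after IAA, while 473 genes were below it after IAA and at or above it in DMSO. Among these, a change of 2 or more times was listed for the 71 members on the one side, and for 115 genes on the other, or 0.294% of the genes that could be taken and 0.607% of the genes listed below 2 FPKM after IAA. Higher ratios kept the same order of the counts, with 20 members and 43 genes of the opposite class at 3 or more times, 9 and 20 at 4 or more times, and 7 and 13 at 5 or more times. When the IAA values were scaled to the same FPKM total as the DMSO values, a factor of 1.05, the counts came closer to each other, at 90 genes higher and 99 genes lower after IAA. The same imbalance in number was present among all genes with a mean FPKM of 1 or more, of which 0.881% were at least doubled after IAA and 1.37% were at least 2 times higher in DMSO. Among genes above 0 in both treatments these shares were 3.98% and 4.3%. All counts here are without the 165 genes that the rule left out. Of these, 14 met the limits for members, and those of the opposite class were not counted. The spread between replicates is not known, so how many of the 71 would pass a test on replicates cannot be read from these counts.

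**Figure D2:**
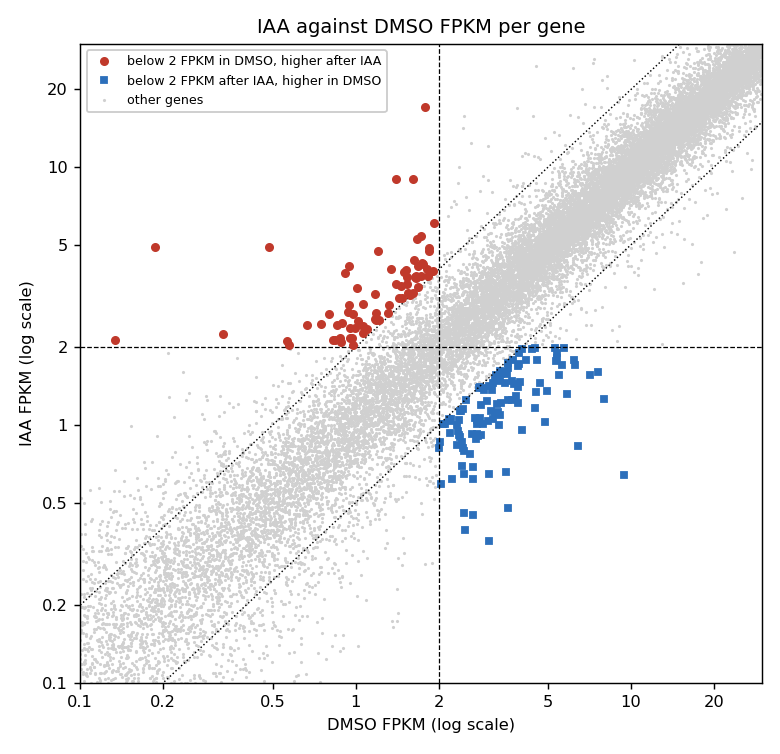
IAA FPKM against DMSO FPKM for each gene on log axes, with dashed lines at 2 FPKM and dotted lines at ratios of 2 in either direction. The 71 members (red circles) lie in the upper left field, and 111 of the 115 genes of the opposite class (blue squares) lie in the lower right field, the others being at 0 or below 0.1 FPKM after IAA and outside the axes.

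**Figure D3:**
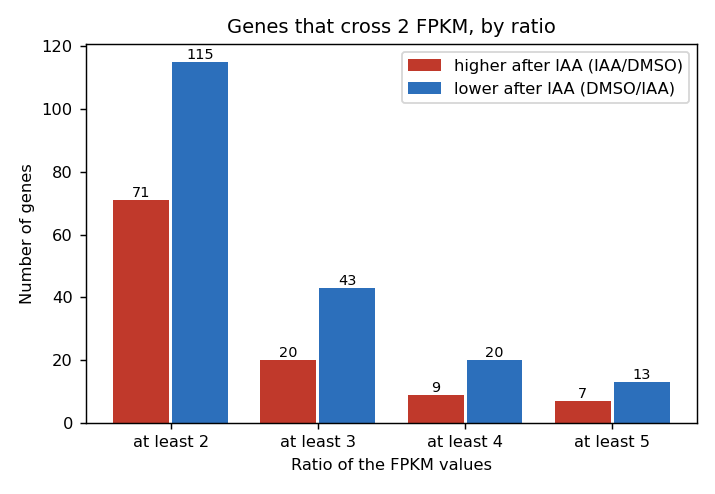
Number of genes that crossed 2 FPKM upward (red, ratio of IAA over DMSO) or downward (blue, ratio of DMSO over IAA) at ratios of at least 2, 3, 4 and 5. The downward class is the larger at each ratio, with 71 against 115 genes at 2 or more times.

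GRMZM2G001799 was the member with the highest level after IAA. The gene lies on chromosome 9 from 16255609 to 16257497 (B73v3), and RefSeq lists it as the protein-coding LOC107522023 without a name. It had 17.2 FPKM after IAA and 1.78 FPKM in DMSO, a ratio of 9.62. The gene beside it, GRMZM2G301860, starts 786 bp further on and runs from 16258284 to 16259458. This neighbour had 12.0 FPKM after IAA and 3.03 FPKM in DMSO, a ratio of 3.97, and was not a member because of its DMSO value. The pair therefore stood higher together, with the member further up. Whether reads run on from the one gene into the other was not tested.

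GRMZM2G329952 and GRMZM2G331770 followed at almost the same level. The first, on chromosome 3 from 72943166 to 72946167, had 8.98 FPKM after IAA and 1.40 FPKM in DMSO, a ratio of 6.43. The other, on chromosome 10 from 144445971 to 144448260, had 8.96 FPKM after IAA and 1.61 FPKM in DMSO, a ratio of 5.57. Neither has a name in the sources used here.

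The 3 largest ratios belonged to genes with very low DMSO values. GRMZM2G370175, on chromosome 3 from 214901790 to 214902528, had 4.90 FPKM after IAA and 0.187 FPKM in DMSO, a ratio of 26.2. Its locus is shared in the table with GRMZM2G067600, which had 1.13 FPKM after IAA and 1.18 FPKM in DMSO, so reads could have been divided between them and the value of the member is uncertain. GRMZM2G033359 (LOC100383126), on chromosome 3 from 194488173 to 194491797, had 2.13 FPKM after IAA and 0.134 FPKM in DMSO, the lowest control value of all members, which gives a ratio of 15.9. GRMZM2G117454, on chromosome 7 from 2750461 to 2752227, had 4.88 FPKM after IAA and 0.485 FPKM in DMSO, a ratio of 10.1. These 3 genes were the only members at 10 or more times, and with AUX9 they were the only ones below 0.5 FPKM in DMSO. At such control values the ratio depends strongly on how the low value is treated. With 1 FPKM added to both values, the log2 ratio was 2.31 for GRMZM2G370175, against 4.71 without, 1.46 for GRMZM2G033359, against 3.99 without, and 1.99 for GRMZM2G117454, against 3.33 without. GRMZM2G001799 then had the highest log2 ratio of the members, at 2.71, and 21 of the 71 kept a ratio of 2 or more.

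Of the 71 members, 21 were found in the RefSeq gene table, and 15 of these have no name there beyond a locus number. Only Dwarf1, PPCK2 and AUX9 carry a gene name, and the other 3 have names of markers or clones. The remaining 50 have no entry that matches their identifier. The roles of most members are therefore not known here, and groups of genes could be searched by name alone. Names that fit 31 groups were looked up (hormone pathways, transcription factor families, kinases, cell wall, stress, transport and photosynthesis genes). These took in 645 genes, 181 of them below 2 FPKM in DMSO, and 3 of the groups held a member.

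Dwarf1 (GRMZM2G036340) is the named member with the highest level. It encodes a gibberellin 3-oxidase, the enzyme of the last step to bioactive gibberellin, and maize plants that lack it are dwarfs. The gene, on chromosome 3 from 10455337 to 10457618, had 6.05 FPKM after IAA and 1.92 FPKM in DMSO, a ratio of 3.15. Its control value was the closest to the limit of 2 FPKM from below of all 71. The gene listed under the names ga3ox1 and ga3ox2 (GRMZM2G044358) was at 0 in both treatments, so Dwarf1 was the only gibberellin 3-oxidase gene found by name that had a value above 0.

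The other gibberellin genes found by name and above 0 differed less between the treatments. For an1, which encodes the ent-copalyl diphosphate synthase at the start of gibberellin synthesis, 14.8 FPKM after IAA stood against 12.4 FPKM in DMSO. Dwarf3, the ent-kaurenoic acid oxidase, had 16.1 FPKM after IAA and 10.8 FPKM in DMSO, a ratio of 1.49. D8 and d9 encode DELLA proteins, which repress gibberellin responses. D8 had 26.4 FPKM after IAA and 24.9 FPKM in DMSO, and d9 had 10.2 FPKM after IAA and 11.01 FPKM in DMSO. Dwarf2 (GRMZM2G103773) had 2.61 FPKM after IAA and 2.55 FPKM in DMSO. The 6 gibberellin genes above 0 had a median log2 ratio of 0.17, and Dwarf1 was the only one of them at 2 or more times.

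PPCK2 (GRMZM2G135091) encodes a phosphoenolpyruvate carboxylase kinase, one of a small family of kinases that phosphorylate the enzyme of primary carbon fixation in C4 leaves and its counterparts in other tissues. The gene, on chromosome 4 from 143105617 to 143107036, had 2.71 FPKM after IAA and 1.19 FPKM in DMSO, a ratio of 2.28. PPCK3 had 6.96 FPKM after IAA and 4.80 FPKM in DMSO, and PPCK4 had 3.48 FPKM after IAA and 2.45 FPKM in DMSO. PPCK1 was listed lower after IAA, with 5.08 FPKM after IAA and 6.05 FPKM in DMSO. PPCK2 was thus the lowest of the 4 in either treatment and the only one at 2 or more times.

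AUX9 (GRMZM2G048131), on chromosome 7 from 142810056 to 142811513, is the only member with an auxin name. The table of names does not say which family the AUX genes belong to. It had 2.26 FPKM after IAA and 0.330 FPKM in DMSO, a ratio of 6.84 or 2.77 on the log2 scale, which was 1.29 with 1 FPKM added to both values. The name is shared with GRMZM2G149449, which was listed at 0 in both treatments, and the pair share 1 RefSeq entry.

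Among the 20 genes named AUX or IAA with a number, 4 were below 2 FPKM in DMSO and AUX9 was the only one of these that crossed the limit. AUX5 had 1.24 FPKM after IAA and 1.12 FPKM in DMSO, and AUX36 had 0.296 FPKM after IAA and 0.219 FPKM in DMSO. The ratio of AUX9 was of the size found for genes of the list with far more transcript. AUX22, also named BIF1, had 36.4 FPKM after IAA and 5.45 FPKM in DMSO, a ratio of 6.68. AUX1 (GRMZM2G000158) had 15.8 FPKM after IAA and 2.47 FPKM in DMSO, a ratio of 6.39. In all, 7 genes of the list, AUX22 and AUX1 among them, were at least doubled from 2 FPKM or more, a class that took in 98 genes or 0.485% of all those at 2 FPKM or more in DMSO. The 19 genes of the list above 0 had a median log2 ratio of 0.48. The list goes by name alone and need not be a single family. It also holds GRMZM2G129413 (aux1, also named aic1) and GRMZM2G116204 (Aux311, also named abp1). AUX9 thus had the highest ratio of the list as deposited, at the third lowest level after IAA among those 19. With 0.1 FPKM added to both values, the log2 ratio of AUX9 was 2.46. The other genes of the list were not recomputed in this way, so the rank is that of the deposited values only.

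**Figure D4:**
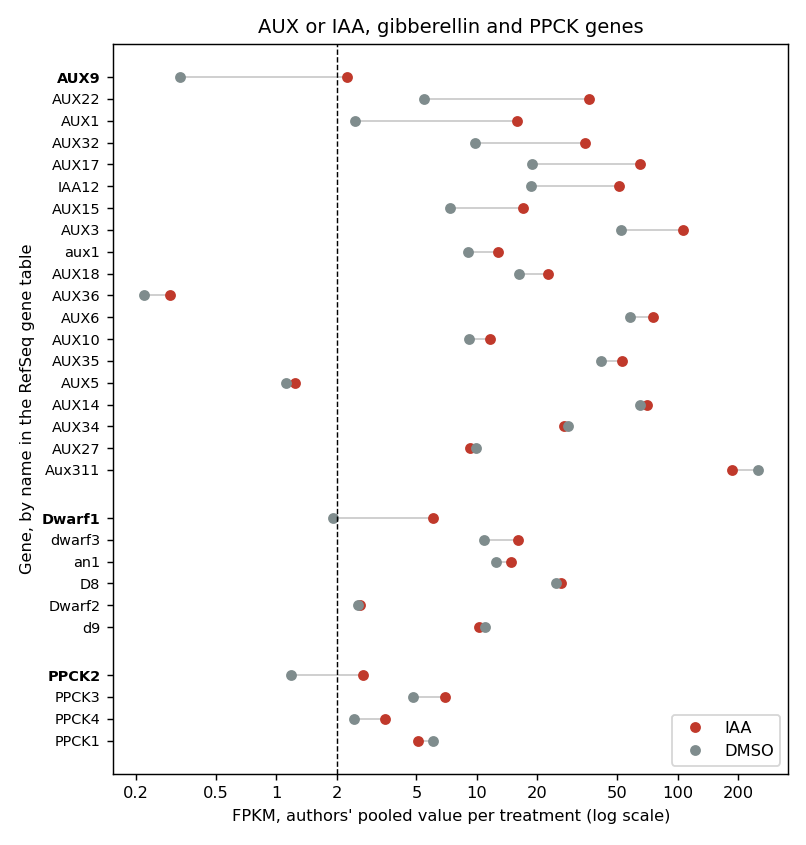
FPKM after IAA (red) and in DMSO (grey) of the AUX or IAA numbered genes, the gibberellin genes and the PPCK genes that were above 0, on a log axis with a dashed line at 2 FPKM and members in bold. AUX9, Dwarf1 and PPCK2 are the 3 genes whose line crosses 2 FPKM.

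None of the other named groups held a member. For SAUR genes this says nothing, since no gene that the rule could take was found under such a name. The 165 genes left out by the rule were not searched by name. The only GH3 gene found, GRMZM2G378106, was above 2 FPKM in DMSO, with 50.5 FPKM after IAA and 4.95 FPKM in DMSO, a log2 ratio of 3.35. The ARF list had 4 genes below 2 FPKM in DMSO out of 21, and the LBD list (LOB domain transcription factors, several of which are auxin targets in Arabidopsis) had 5 out of 10. The MYB list had 29 such genes out of 64, the bHLH list 17 out of 46 and the NAC list 12 out of 28. Transporter and aquaporin names covered 70 genes, 28 of them below 2 FPKM in DMSO. The rule took 0.376% of all genes below 2 FPKM in DMSO, and the absence of members from lists of this size is read against that share.

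Other members stood out by their level after IAA or by their ratio. GRMZM2G157164, on chromosome 1 from 77040498 to 77041412, had 4.72 FPKM after IAA and 1.21 FPKM in DMSO, a ratio of 3.90. GRMZM2G468585, on chromosome 5 from 195180108 to 195181569, had 3.89 FPKM after IAA and 0.916 FPKM in DMSO, a ratio of 4.25. GRMZM2G025936, on chromosome 4 from 100449829 to 100450913, had 5.25 FPKM after IAA and 1.67 FPKM in DMSO, a ratio of 3.14. All 3 lack a name, and none shares its locus with another gene.

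A second set started below 1 FPKM and ended just above the limit. GRMZM5G846550 had 2.43 FPKM after IAA and 0.668 FPKM in DMSO, a ratio of 3.64. GRMZM2G101405 had 2.04 FPKM after IAA, the lowest value of any member, and 0.573 FPKM in DMSO. GRMZM2G316925 had 2.69 FPKM after IAA and 0.802 FPKM in DMSO, a ratio of 3.35. For these genes the ratio as deposited is well inside the rule, whereas the IAA level lies close to its edge. With the limit set at 3 FPKM none of them would be a member. The log2 ratio with 1 FPKM added to both values was 1.04 for GRMZM5G846550, 1.03 for GRMZM2G316925 and 0.95 for GRMZM2G101405. A ratio of 2 stands at 1 on that scale, so GRMZM2G101405 then fell short of it.

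Some members have very short loci, and 1 of the 6 at 5 FPKM or more after IAA spans under 1000 bp. GRMZM5G810728, on chromosome 3 from 112483534 to 112483710, spans 177 bp and had 5.41 FPKM after IAA and 1.72 FPKM in DMSO. GRMZM2G703772, on chromosome 1 from 153011413 to 153011724, spans 312 bp and had 2.45 FPKM after IAA and 0.749 FPKM in DMSO. Since FPKM divides by length, a given FPKM value rests on fewer fragments in a short gene than in a long one at the same depth.

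Genes lay close to each limit of the rule on both sides. Just inside the DMSO limit, below Dwarf1, stood GRMZM2G105834 with 3.96 FPKM after IAA and 1.91 FPKM in DMSO. Just outside it stood GRMZM2G078806 with 4.56 FPKM after IAA and 2.09 FPKM in DMSO. At the IAA limit, GRMZM2G110473 was inside with 2.05 FPKM after IAA and 0.975 FPKM in DMSO, and GRMZM5G898939 was outside with 1.97 FPKM after IAA and 0.579 FPKM in DMSO. At the ratio limit, GRMZM2G145654 was inside at 2.001 and AC234526.1_FG005 outside at 1.98. GRMZM2G020799 was also left outside by its IAA value alone, with 1.896 FPKM after IAA and 0.208 FPKM in DMSO, a ratio of 9.11. Below the IAA limit, 1008 genes had a ratio of 2 or more over a DMSO value above 0, against 1013 genes with the opposite change and both values below 2 FPKM.

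Locus span, which the rule did not use, had a lower median in the members than in other genes in the same range of mean FPKM. This difference was not tested. The median span was 1458 bp over the 71 members, with the middle 50% between 927 and 2286 bp, and 3218 bp over 9864 other genes in the same range of mean FPKM (1.13 to 9.47 FPKM). These other genes, called genes of like mean FPKM, share the range only and were not matched in level. They leave out the members, the opposite class and the genes doubled from 2 FPKM or more. Their medians were 4.10 FPKM after IAA and 4.20 FPKM in DMSO, against 3.21 and 1.21 FPKM in the members. Spans under 1000 bp were found for 21 members, or 29.6%, beside 9.81% of the other genes of like mean FPKM. The genes that crossed 2 FPKM in the opposite direction were shorter again, with a median of 869 bp and 60.9% under 1000 bp. Genes doubled from 2 FPKM or more had a median of 1682 bp and 24.5% under 1000 bp, at mean levels of 3.26 to 308 FPKM that reach far above those of the members. Over all 39118 genes that the rule could take, at any level, the median was 2606 bp and 18.3% were under 1000 bp. The span counts introns, transcript length was not used, and the part of gene length in these lists was not tested.

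**Figure D5:**
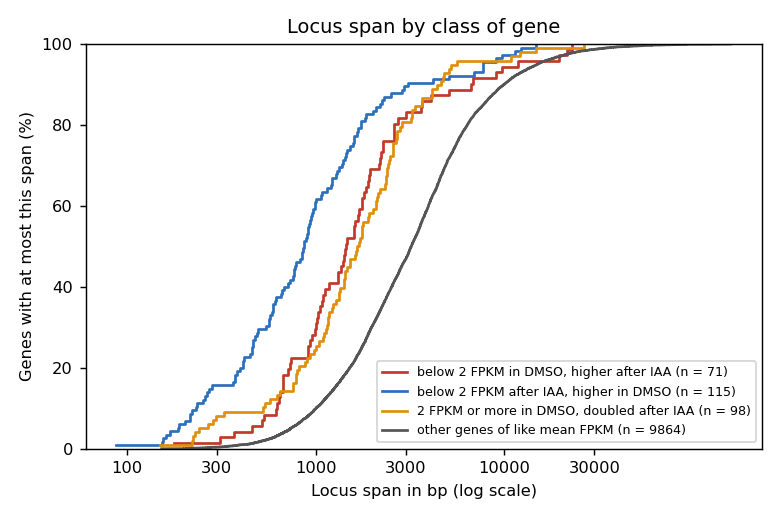
Cumulative share of genes by locus span in bp (log axis) for the 71 members, the 115 genes of the opposite class, the 98 genes doubled from 2 FPKM or more and 9864 other genes of like mean FPKM. The member curve lies left of the curve of other genes, with medians of 1458 and 3218 bp, and right of the curve of the opposite class, with a median of 869 bp.

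All 71 members carried the status that Cuffdiff gives to genes with enough reads for its own test, beside 24.7% of genes below 2 FPKM in DMSO, and all but 1 of the other genes of like mean FPKM did as well. Names were scarcer among the members than among the other genes in the same range of mean FPKM, with 29.6% and 58.6% matched to RefSeq. Again no test was made, and the levels were not matched. The matched share was 34.8% for the genes of the opposite class and 58.2% for those doubled from 2 FPKM or more. Identifiers that begin with GRMZM5G made up 12.7% of the members and 7.96% of all genes that the rule could take.

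A locus shared with another gene was listed for 6 members, or 8.45%, beside 6.85% of the other genes of like mean FPKM. Besides GRMZM2G370175 these include GRMZM5G892341, at 4.15 FPKM after IAA and 0.946 FPKM in DMSO, whose 9064 bp locus on chromosome 2 also holds GRMZM2G474459 and GRMZM5G834231. AC208113.3_FG005 had 3.75 FPKM after IAA and 1.53 FPKM in DMSO and shares its locus with GRMZM5G858417, at 50.3 FPKM after IAA and 41.0 FPKM in DMSO. GRMZM2G014427 had 2.58 FPKM after IAA and 1.17 FPKM in DMSO beside GRMZM2G014508, at 16.9 FPKM after IAA and 19.7 FPKM in DMSO. In both of these pairs the partner was far more abundant than the member. The libraries kept strand, but whether the counting used it is not given in the sources used here, so the values of these 6 members are uncertain. Of the 9 members with a locus of 5000 bp or more, 5 were in this set, where the listed span is that of the shared locus. Without shared loci the median span of the members was 1420 bp.

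The members were spread over all 10 chromosomes. Chromosome 3 held 10, chromosomes 2, 5 and 10 held 9 each, and chromosomes 4 and 7 held 8 each. Chromosome 10 had the most for its size, with 3.35 members per 1000 listed genes, and chromosome 1 the fewest, with 0.999 per 1000. These counts are small, and no chromosome was tested. No 2 members were next to each other in the order of listed genes. The closest pair was GRMZM2G127668 and GRMZM2G331770 on chromosome 10, 39.0 kb apart with 1 gene between them. GRMZM2G127668 (LOC100384012) had 2.44 FPKM after IAA and 0.853 FPKM in DMSO, and GRMZM2G331770 was among the members with the highest levels. A further 2 pairs lay within 300 kb, on chromosomes 5 and 7. A flanking gene within 20 kb that was at least doubled to 2 FPKM or more was found for 2 members, or 2.82%, beside 0.432% of all genes that the rule could take. The first is GRMZM2G001799, described above. The other is GRMZM2G082296, at 3.41 FPKM after IAA and 1.01 FPKM in DMSO, which lies 14584 bp from GRMZM2G383735, at 74.2 FPKM after IAA and 32.5 FPKM in DMSO.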

How the data were processed

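Shoot RNA of B73 seedlings was sequenced in 3 replicates for each treatment (IAA or DMSO, 30 min). Per the labels and methods, reads were trimmed by trimmomatic, aligned to B73v3 by TopHat2 2.1.1 and summarised by Cuffdiff 2.2.1, whose options are not given in the sources used here. The FPKM values were deposited pooled over replicates, as 1 number for a gene in each treatment. The authors' own fold changes, test statistics, p-values and q-values stand in the same table and were not used. Another text column, Cuffdiff's status, was used as deposited to say which genes had enough reads.

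Ratios are IAA over DMSO without a pseudocount unless stated. Among 4719 low genes above 0 in both treatments, no ratio rounded to 4 decimals was shared by more than 4 genes. Values pooled over replicates need not show steps of whole reads at any depth. This search therefore says nothing about depth, which is unknown. With pooled values, the planned limma fit on replicates could not be run and no test was made. The members and gene lists were chosen with earlier results of these data known. Genes named in the text are members of the named groups, the 20 highest by IAA level and by ratio, genes at each limit and close pairs. GRMZM2G014427, AC208113.3_FG005, the GH3 gene and the genes that share or flank a locus were described after their values were seen. Names came from the RefSeq table of Zm-B73-REFERENCE-NAM-5.0, which matched 18995 of 39283 identifiers. Loci are those of B73v3, counted from 1. Sequences of promoters and proteins were not used here. Alternatives were other limits, pseudocounts, scalings and filters. Software was Python 3.11.15 with pandas 2.3.3, numpy 2.4.6 and, for plots, matplotlib 3.10.9.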

Additional observations from a re-analysis of the deposited data

How the results depend on the processing

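No paired analysis was possible because replicate values were pooled, and no replicate could be left out. Motif shares in promoters were not run, since no promoter sequence was used here. The number of members stayed within 1.5 times of 71 with limits of 1, 3 and 5 FPKM (100, 62 and 48 genes, of which 25, 39 and 6 are among the 71), a pseudocount of 0.1 FPKM (67), equal FPKM totals (90), the median log2 ratio set to 0 (85), genes with enough reads only (71) and no shared loci (65). It was 198 with a ratio of at least 1.5, 20 with 3, 9 with 4, 21 with 1 FPKM added to both values and 42 where the mean FPKM had to be 2 or more. The opposite class of 115 genes became 239, 43, 20, 50 and 69 genes in the same order, and 67 with a limit of 5 FPKM. A ratio of at least 5, added after the data had been seen, gave 7 and 13 genes. Stricter limits give fewer genes by construction. The opposite class was the larger under every alternative that was run, among genes that the rule could take. The 14 left-out genes that met the limits are not in these counts, and left-out genes of the opposite class were not counted. With equal totals the counts were 90 and 99, so this order could differ with the left-out genes. The median log2 ratio of the members, 1.31, was 1.24 and 0.89 with pseudocounts of 0.1 and 1 FPKM, 1.38 with equal totals and 1.35 with the median set to 0. How depth limits the low values cannot be given, since no read numbers are known.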
